A study of Mus musculus with 6 samples.

Results

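The 10 genes described here, Arntl, Npas2, Per1, Per2, Per3, Cry1, Cry2, Nr1d1, Nr1d2 and Dbp, belong to the circadian clock loops or their output. They were found by symbol in the deposited differential expression table, where all 10 of the 10 symbols were present among 33924 genes. The table compares poly(A)-selected RNA from the retinal pigment epithelium and choroid (RPE/choroid) of 3 young and 3 aged wild-type C57BL/6J mice. The RPE is the pigmented layer that supports the photoreceptors, the choroid is the vascular bed beneath it, and both were scraped together from the sclera once the neural retina had been lifted off, with each sample title naming a mouse of its own. Titles and age entries both put the young mice at 1 to 2 months, while for the aged mice the titles read 20 to 24 months and the age entries 22 to 24 months. Sex is entered as male for every sample, but male and female animals and a slightly older young group appear in the methods of the study. The labels name polyA RNA as the molecule and an rRNA removal kit in the library protocol. No transgene or agent is named for any mouse. The hour of the day at which eyes were collected is not given in the sources used here.

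The clock runs in most cells as a delayed feedback loop of transcription. ARNTL (also called BMAL1) pairs with CLOCK or its paralog NPAS2, binds E-box sequences and turns on the Period (Per) and Cryptochrome (Cry) genes, whose proteins then return to the nucleus and block the pair. The nuclear receptors NR1D1 and NR1D2 (REV-ERB alpha and beta), which are also turned on through E-boxes, close an interlocking loop by repressing Arntl through a response element called RORE. DBP is an output activator that binds D-box sequences, some of them in Per genes. The mRNAs of these genes rise and fall over the day with different phases. In the eye, the clock is known for timing the shedding of photoreceptor outer segments and their daily uptake by the RPE.

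The deposited table holds 1 line per gene. Each line carries the normalized count averaged across 6 libraries, the log2 fold change and its SE (standard error), the Wald statistic of DESeq2 and p-values, but nothing for a single library. The SD between mice and the overlap of the groups could therefore not be examined for any gene. Signs were reversed here, so a positive fold change means a higher level in aged RPE/choroid. Fold changes are also given as ratios of aged to young with the 95% confidence interval from the deposited SE. The level implied for each age group was computed from the mean and the fold change, which the fit had pulled towards 0 in genes with few counts. A gene was called when its Wald p-value, adjusted by the Benjamini-Hochberg method over the 18196 genes that had a p-value and averaged 10 or more normalized counts, was under 0.05.

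The markers of the tissue were present. All 10 RPE markers were tested, with mean normalized counts between 81.8 (Best1) and 397586 (Ttr). With age, Rgr and Best1 were higher (2 of 10) and Mitf was lower (1 of 10). Over all tested genes, 12.9% were called higher and 10.4% lower, and the marker counts stand beside these shares. Markers of rod and cone photoreceptors were also abundant and made up 0.822% of all counts, with 0 of 13 called (0 also at an unadjusted p under 0.05 in the DESeq2 Wald test, the 1 tool available) and SEs between 0.38 and 0.43 on the log2 scale. The summed level implied for the 8 macrophage markers was 29385 in young and 258893 in aged RPE/choroid, with 5 called higher (Cd68, Adgre1, Aif1, Lyz2 and Tyrobp) and 1 lower (Cd163). Lyz2 carried most of that sum (16384 in young and 227406 in aged), and the other 7 summed to 13001 and 31487. Csf1r and Mrc1 were not called, with ratios of 1.07 and 0.877. Of the 8 endothelial markers 0 were called higher and 1 lower (Tek), and of the 8 skeletal muscle markers 1 was higher (Myh4) and 2 were lower (Myh1 and Mylpf). Of the 6 melanocyte markers, several of which the RPE also expresses, 0 were higher and 3 were lower (Dct, Pmel and Kit). The part of these cell types in the clock gene values was not tested, and in bulk tissue fewer cells of a type and less RNA per cell cannot be told apart.

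Among the clock genes, Per3 was lower and Npas2 and Nr1d1 were higher in aged than in young RPE/choroid, and 6 others did not pass the test. The hour of collection is not given, and the mRNAs of these genes change over the day. A difference in hour between the groups therefore cannot be told apart from age, here and in the wider clock pathway. Nr1d2 had a fold change but no p-value. Of the 9 members with a p-value, 2 were called higher and 1 lower. Over all tested genes 23.3% were called in either direction, 12.9% higher and 10.4% lower in aged RPE/choroid, so a count of 3 in 9 is not a result about the clock genes as a group. The median log2 fold change of the 9 members was -0.01, beside -0.02 over all tested genes. The members spread to both sides of 0, with log2 fold changes from -1.19 to 1.55.

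**Figure D1:**
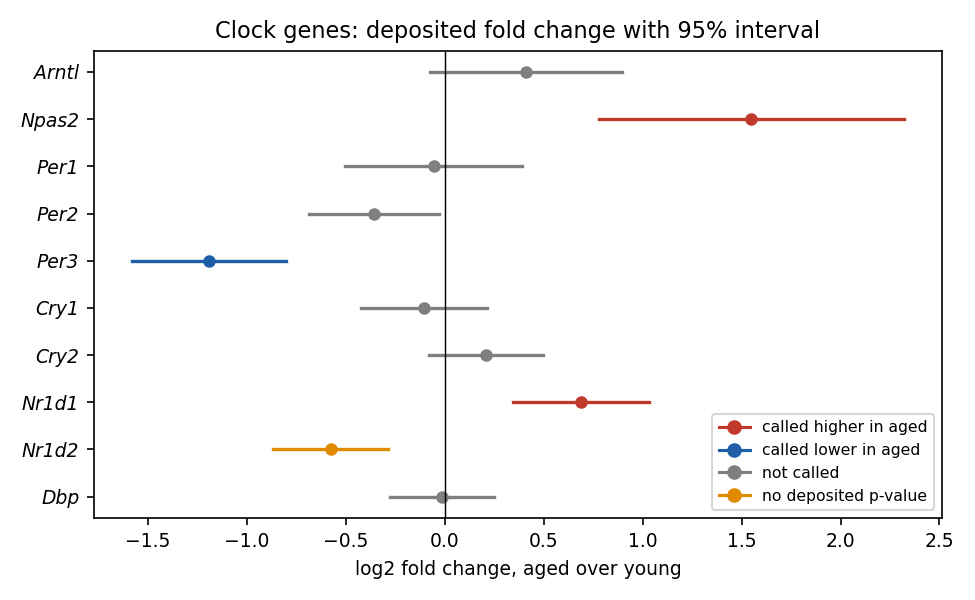
Log2 fold change of the 10 clock genes, aged over young, as points with 95% confidence intervals from the deposited SE (x axis), 1 row per gene. Npas2 and Nr1d1 lie to the right of 0, Per3 lies furthest to the left, and Nr1d2 (orange) has no deposited p-value.

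Mean levels were compared per length, as the mean normalized count per kilobase of the longest annotated transcript. The order depends on this division, which is right only if the deposited counts are not already per length, and they were derived from TPM, a unit scaled to length. On the scale per kilobase Nr1d2 (3155 per kilobase) and Dbp (2925) were the most abundant. Cry1 (405), Per3 (394) and Cry2 (296) followed, then Arntl (190), Nr1d1 (162), Per2 (139) and Per1 (117). Npas2 was far lower, at 5.58 per kilobase. Without the division, the mean normalized counts again put Nr1d2 (14713) and Dbp (5373) at the top and Npas2 (23.6) at the bottom. Between them, Per3 (2362) came before Cry1 (1225) and Cry2 (1177), and Per2 (811) before Arntl (757), Per1 (546) and Nr1d1 (440). As no spread of the levels is given, neighbours in either order cannot be said to differ.

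**Figure D2:**
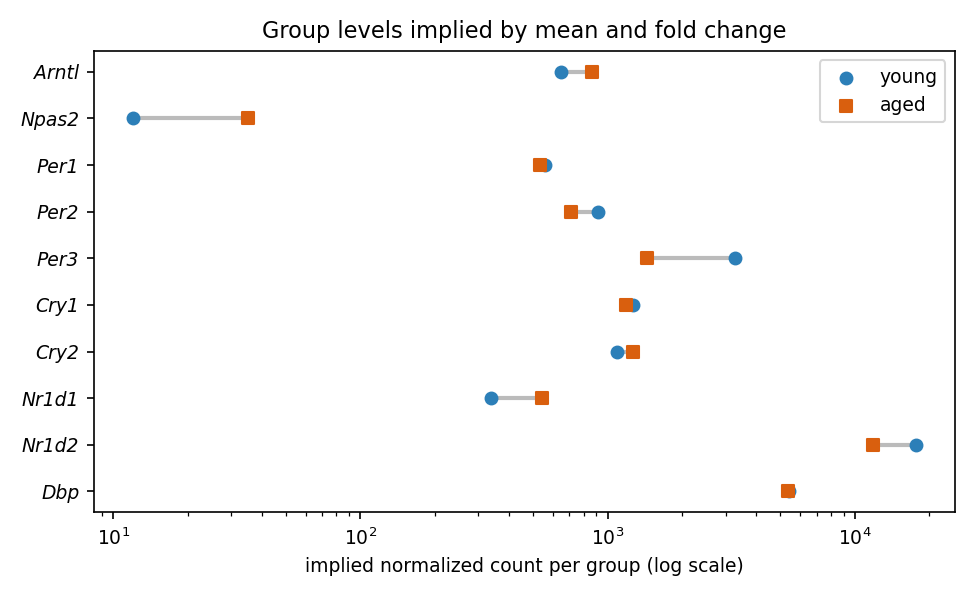
Normalized count implied for young (circles) and aged (squares) RPE/choroid for each clock gene, on a log axis and not divided by transcript length, so that groups are compared within a gene. The symbols part in Npas2, Per3, Nr1d1 and Nr1d2 and nearly coincide in Per1, Cry1 and Dbp.

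The activating arm was examined first. Npas2 (ENSMUSG00000026077, GRCm38 chromosome 1, 39193731 to 39363236, plus strand) encodes the partner that can stand in for CLOCK. Its mean normalized count was 23.6, with implied levels of 12.0 in young and 35.2 in aged RPE/choroid. The log2 fold change was 1.55 (SE 0.39, adjusted p = 0.000791). Aged over young, this is 2.93 times, with a 95% confidence interval of 1.72 to 4.99. Npas2 thus had the largest positive fold change among the members and also the lowest count, with 8.01% of tested genes below it. It falls outside the test when 50 normalized counts are required.

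Arntl (ENSMUSG00000055116, chromosome 7, 113207465 to 113314126, plus strand) encodes the obligate partner of both CLOCK and NPAS2. Its mean normalized count was 757, with implied levels of 650 in young and 864 in aged RPE/choroid. The ratio was 1.33 (95% confidence interval from 0.950 to 1.86, adjusted p = 0.235), and Arntl was not called. Its SE of 0.25 on the log2 scale was wide for its abundance, as the median SE was 0.16 over the 5327 tested genes with a mean between 379 and 1514. The interval thus reached from a slight fall to a rise of 1.86 times. Clock, named here after its value was seen, had a ratio of 0.917 (95% confidence interval from 0.722 to 1.16, adjusted p = 0.662). No test compared the fold changes of Npas2, Arntl and Clock with each other.

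One of 2 annotated Arntl starts holds a RORE, the element through which NR1D1 and NR1D2 act, and it is shown because both receptors are members. The RORE is an A- and T-rich stretch before a GGTCA core. The stretch lies on the plus strand from 17 to 46 bases after the start (GRCm38.p6, chr7:113207528-113207557, RefSeq), with the RORE in capitals.
Arntl: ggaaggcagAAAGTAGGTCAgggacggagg
A RORE was found in 0.384% of the 32851 promoter windows (250 bases before to 50 after a start, both strands searched). Among the 11 windows of 9 members, this was the 1 match.

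The Period genes, whose proteins form the repressor complex with the Cryptochromes, all had negative log2 fold changes, and 1 of 3 was called. Per3 (ENSMUSG00000028957, chromosome 4, 151003652 to 151044665, minus strand) had the smallest adjusted p-value of the 9 tested members. Its mean normalized count was 2362, with implied levels of 3284 in young and 1440 in aged RPE/choroid. The log2 fold change was -1.19 (SE 0.20, adjusted p = 5.58e-08). Aged over young, this is 0.439 times, with a 95% confidence interval of 0.335 to 0.574. Young RPE/choroid thus held 2.28 times the Per3 mRNA of aged RPE/choroid. The SE was above the median of 0.14 over the 4945 tested genes with a mean between 1181 and 4724. Camta1 overlaps Per3 on the same strand in the annotation and was not called, with a ratio of 1.06 (95% confidence interval from 0.772 to 1.45, adjusted p = 0.845). The annotated transcripts of Per3 shared 0% of their words of 50 bases with other genes on the same strand.

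Per2 (ENSMUSG00000055866, chromosome 1, 91415982 to 91459324, minus strand), a Period gene needed for stable rhythms, had a mean normalized count of 811. Its implied levels were 910 in young and 711 in aged RPE/choroid. The ratio was 0.781 (95% confidence interval from 0.622 to 0.980). The unadjusted p was 0.0328 and the adjusted p was 0.110, so Per2 was not called. With all fold changes shifted to equal library totals, Per2 was called lower with adjusted p = 0.0173.

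Per1 (ENSMUSG00000020893, chromosome 11, 69095217 to 69109960, plus strand) is a Period gene that also responds within minutes to light, cAMP signalling and glucocorticoids. Its mean normalized count was 546, with implied levels of 556 in young and 535 in aged RPE/choroid. The ratio was 0.962 (95% confidence interval from 0.705 to 1.31, adjusted p = 0.893), with an interval that holds both a fall and a rise. The SE of 0.23 was wider than the median of 0.17 over the 4838 tested genes with a mean between 273 and 1091. The intervals of Per1 and Per3 did not overlap, whereas that of Per2 overlapped that of Per1 and not that of Per3, and the differences between the Period genes were not tested.

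The promoter of Per3 is shown in full up to its start because Per3 had the clearest difference and because its window holds 2 D-boxes (TTANGTAA), the binding sequence of DBP and its relatives. The window before the start is on the minus strand (GRCm38.p6, chr4:151044666-151044915, RefSeq), with both D-boxes in capitals, at positions -205 and -158 from the start. Per1 is shown for comparison with its E-box (CACGTG) in capitals, at position -166 from 1 of its 2 RefSeq starts (plus strand, chr11:69098768-69098803).
Per3: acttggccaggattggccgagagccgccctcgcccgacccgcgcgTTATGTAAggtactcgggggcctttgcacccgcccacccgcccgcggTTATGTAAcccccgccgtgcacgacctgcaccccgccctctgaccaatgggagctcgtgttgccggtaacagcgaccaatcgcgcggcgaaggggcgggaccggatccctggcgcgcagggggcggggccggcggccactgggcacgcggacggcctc
Per1: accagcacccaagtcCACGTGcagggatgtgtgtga
A D-box was found in 2.32% and an E-box in 7.15% of all promoter windows. Among the 9 members with a window, 1 held a D-box and 2 held an E-box. Per2 had no window, so its promoter was not searched. A match in such a window is a description of the letters and does not show that a factor binds there.

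**Figure D3:**
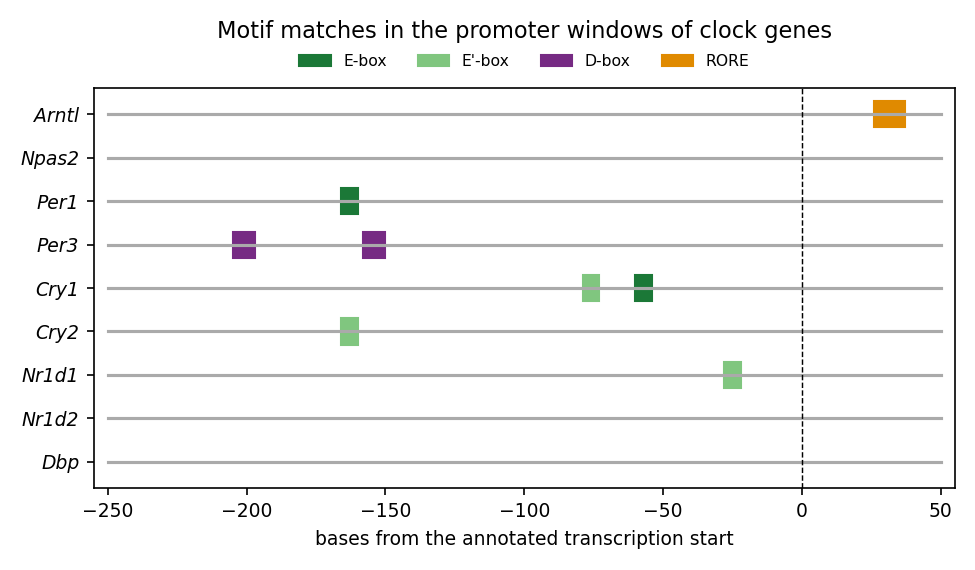
Matches to 4 clock motifs in the promoter windows of 9 clock genes, by distance in bases from the annotated transcription start (dashed line at 0). Among these genes Per3 is the one with D-boxes, Per1 and Cry1 hold an E-box, and Npas2, Nr1d2 and Dbp have no match among these letters (matches of genes with 2 windows are drawn on 1 line). Per2 had no window and was not searched.

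The Cryptochromes, which carry the main repressing activity against the ARNTL pair, were not called. Cry1 (ENSMUSG00000020038, chromosome 10, 85131700 to 85185064, minus strand) had a mean normalized count of 1225, with implied levels of 1270 in young and 1181 in aged RPE/choroid. Its ratio was 0.930 (95% confidence interval from 0.746 to 1.16, adjusted p = 0.698). Cry2 (ENSMUSG00000068742, chromosome 2, 92403646 to 92434043, minus strand) had a mean normalized count of 1177, with implied levels of 1091 and 1263. Its ratio was 1.16 (95% confidence interval from 0.948 to 1.41, adjusted p = 0.320). Both SEs, 0.16 for Cry1 and 0.15 for Cry2, were close to those of genes of like abundance. Halving or doubling with age lay outside both intervals.

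Both Cryptochrome promoters hold the E-box variant E'-box (CACGTT, which reads AACGTG on the printed strand), and Cry1 holds an E-box beside it. They are shown with these motifs in capitals because Cry1 and Cry2 are targets of the activating arm that were not called. Cry1 is shown from position -94 to -40 (GRCm38.p6, minus strand, chr10:85185094-85185148) and Cry2 from -181 to -146 (minus strand, chr2:92434215-92434250).
Cry1: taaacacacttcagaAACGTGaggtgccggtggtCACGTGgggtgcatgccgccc
Cry2: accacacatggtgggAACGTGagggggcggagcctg
An E'-box was found in 4.68% of all promoter windows and in those of 3 members.

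The REV-ERB receptors had fold changes of opposite sign. Nr1d1 (ENSMUSG00000020889, chromosome 11, 98767932 to 98775333, minus strand) encodes REV-ERB alpha. Its mean normalized count was 440, with implied levels of 337 in young and 542 in aged RPE/choroid. The log2 fold change was 0.69 (SE 0.18, adjusted p = 0.000898). Aged over young, this is 1.61 times, with a 95% confidence interval of 1.27 to 2.04. The gene for thyroid hormone receptor alpha, Thra, overlaps Nr1d1 on the other strand, and 7.27% of the words of Nr1d1 are complementary to Thra transcripts. Thra had a ratio of 1.03 (95% confidence interval from 0.872 to 1.21, adjusted p = 0.850) and was not called. The study's supplementary methods name a stranded kit for libraries from rRNA-depleted RNA. Whether the quantification used strand is not given in the sources used here, so reads from the overlap cannot be assigned with certainty.

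The third E'-box among the members lies at position -28 from the Nr1d1 start, and it is shown in capitals because Nr1d1 was called higher (GRCm38.p6, minus strand, chr11:98775385-98775420).
Nr1d1: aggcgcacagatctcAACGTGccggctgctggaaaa

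Nr1d2 (ENSMUSG00000021775, chromosome 14, 18204054 to 18239127, minus strand), which encodes REV-ERB beta, had the highest mean normalized count of the members, 14713. The implied levels were 17614 in young and 11813 in aged RPE/choroid. The log2 fold change was -0.58 (SE 0.15), a ratio of 0.671 (95% confidence interval from 0.549 to 0.820). The table gives no p-value for Nr1d2, as for 307 genes in all, and does not state why. How far 1 library sets the fold change of Nr1d2 cannot be seen, and no call was made. If a p-value is computed from the deposited Wald statistic, an alternative chosen after seeing the data, its adjusted p is 0.000966. That value takes no account of why the deposited p-value is missing, so Nr1d2 is not counted as different with age. Of the words of Nr1d2, 5.13% also occur in another annotated gene, AC170187.1.

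Dbp (ENSMUSG00000059824, chromosome 7, 45705088 to 45710203, plus strand), the D-box activator and a strongly cycling output of the loop, showed the least difference. Its mean normalized count was 5373, with implied levels of 5397 in young and 5349 in aged RPE/choroid. The ratio was 0.991 (95% confidence interval from 0.825 to 1.19, adjusted p = 0.962). Of the words of Dbp, 16.2% are complementary to transcripts of Sphk2, which overlaps it on the other strand and had a ratio of 1.05 (95% confidence interval from 0.858 to 1.29, adjusted p = 0.780).

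**Figure D4:**
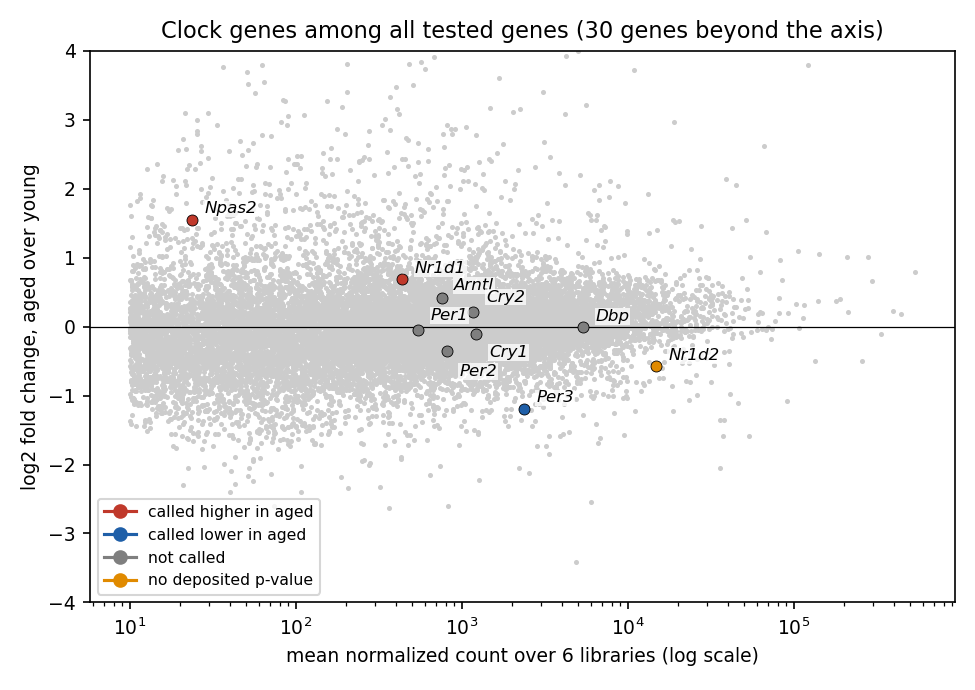
Log2 fold change, aged over young, against the mean normalized count (log axis) for the tested genes (grey) and the 10 clock genes (coloured by call). Npas2 lies at the low end of the counts and Nr1d2 at the high end, and 30 tested genes lie beyond the plotted range of 4 in either direction.

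The wider clock pathway was examined in 3 lists of 39 genes. Of the 37 tested genes 5 were called higher and 4 lower, or 24.3%, close to the share over all tested genes. The transcription factors outside the 10 members had 3 of 13 called higher and 1 lower, with a median log2 fold change of 0.12. Bhlhe41 (DEC2), a repressor that competes for E-boxes, was higher in aged RPE/choroid, with a ratio of 2.27 (95% confidence interval from 1.84 to 2.79, adjusted p = 5.61e-13). Its paralog Bhlhe40 (DEC1) was higher as well (ratio 1.44, 95% confidence interval from 1.21 to 1.71, adjusted p = 0.000462). Arntl2, a paralog of Arntl, fell to a ratio of 0.540 (95% confidence interval from 0.360 to 0.809, adjusted p = 0.0161). The uncalled gene with the smallest p-value was Tef, a relative of Dbp, with a ratio of 0.815 (adjusted p = 0.0609).

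Kinases and ubiquitin factors that set the stability of clock proteins had 1 of 14 called higher and 0 lower, with a median log2 fold change of 0.01. The shares over all tested genes were 12.9% higher and 10.4% lower. The called gene was Csnk2a2, a catalytic subunit of casein kinase 2, with a ratio of 1.38 (95% confidence interval from 1.14 to 1.68, adjusted p = 0.00623). Its call was lost after the shift to equal library totals (adjusted p = 0.0573). The uncalled gene with the smallest p-value was Fbxl21, a ubiquitin ligase subunit that acts on Cryptochromes, with a ratio of 1.48 (adjusted p = 0.101). The casein kinase 1 genes Csnk1d and Csnk1e, the main Period kinases, were named after their values were seen and had ratios of 1.01 (95% confidence interval from 0.868 to 1.16) and 0.979 (95% confidence interval from 0.815 to 1.18).

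Output genes outside the loops had 1 of 10 tested genes called higher and 3 lower, with a median log2 fold change of -0.13. These counts stand beside 12.9% called higher and 10.4% lower over all tested genes, and the list was not tested as a set. Wee1, a cell cycle kinase gene driven by the clock, fell to a ratio of 0.620 (95% confidence interval from 0.463 to 0.831, adjusted p = 0.00879). Tsc22d3 (GILZ), also a glucocorticoid target, fell to 0.681 (adjusted p = 0.0127). Opn4, the gene of the photopigment melanopsin, had a ratio of 0.563 (95% confidence interval from 0.390 to 0.814, adjusted p = 0.0132). Melanopsin serves light input to the clock, so Opn4 is counted in this list without being an output. Which cells its mRNA came from was not tested. Pdk4, a kinase that restrains glucose oxidation, rose to a ratio of 1.66 (adjusted p = 9.57e-05). The uncalled gene with the smallest p-value was Nampt, with a ratio of 1.22 (adjusted p = 0.117). The melatonin receptor genes Mtnr1a and Mtnr1b had mean normalized counts of 1.90 and 0 and were not tested.

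**Figure D5:**
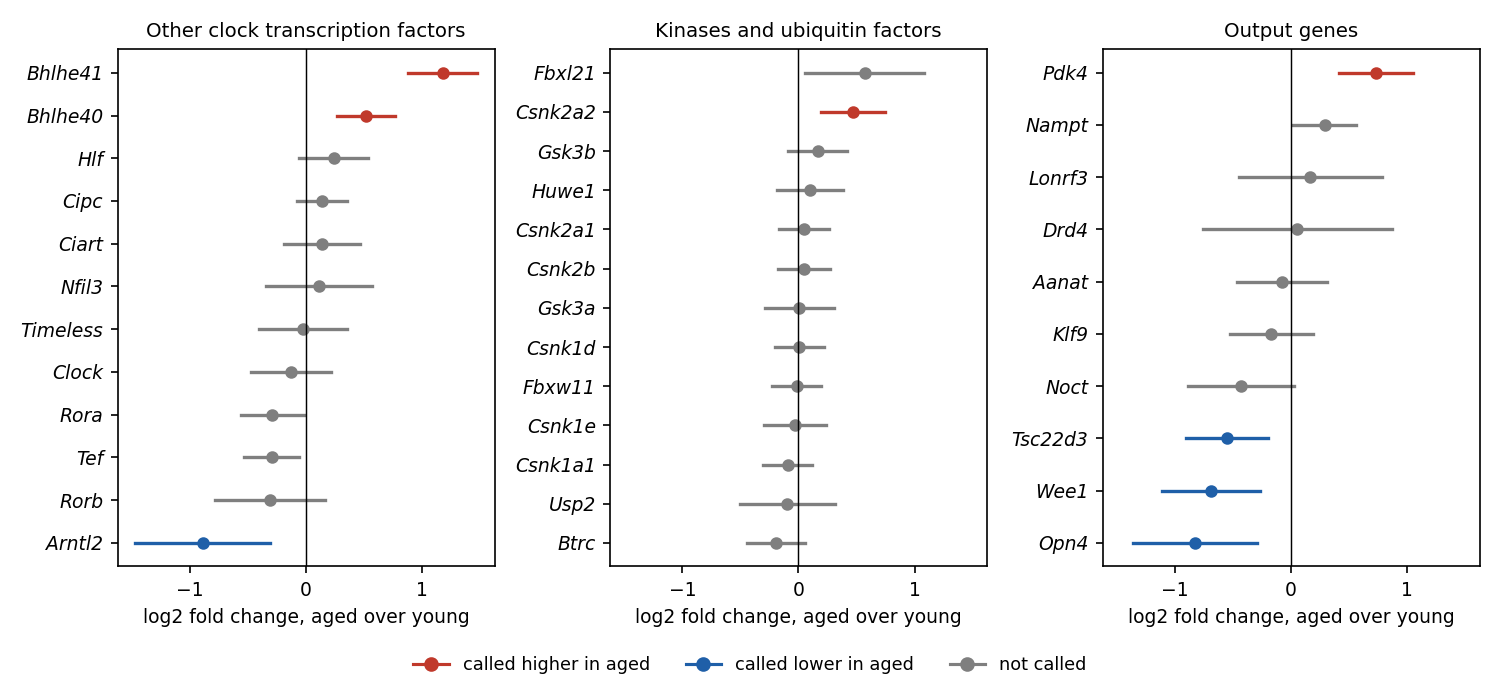
Log2 fold change, aged over young, with 95% confidence intervals for 35 of the 37 tested genes of the 3 pathway lists, sorted within each panel. Bhlhe41 has the highest value of the first panel and Arntl2 the lowest, and most intervals of the kinase and ubiquitin panel cross 0.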

How the data were processed

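RPE/choroid libraries of 3 young and 3 aged mice were grouped by the sample titles. According to the study's supplementary methods and processing notes, the authors used BBDuk to trim the reads and STAR to align them to Ensembl transcripts of GRCm38, quantified them as TPM (a transcript abundance scaled to length) with Sailfish, transformed the TPM values into normalized counts by total count and compared the groups with DESeq2. The authors deposited the mean normalized count of each gene (a signal averaged over 6 libraries), and whether this transformation kept the scaling to length is not stated. The fold change, deposited in log2 units with its standard error, has young over aged as its direction according to the study's description of the comparison. The Wald statistic is a score deposited beside them, and each p-value was deposited with and without adjustment. The depth of single libraries is unknown.

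Because the table gives no values per library, no count model was fitted here: the Wald p-values that the authors obtained with DESeq2 were adjusted over 18196 genes by the Benjamini-Hochberg method. Confidence intervals are normal intervals from the deposited SE. Whether mice of a group were littermates is not given. The Wald p-values set each fold change against its deposited SE, and the spread between mice could not be examined. Transcript length, GC content and positions came from GENCODE M21 (GRCm38), which matched 97.3% of tested genes, and promoters from RefSeq. Of 10 members, 9 had promoter windows, and Per2 had none. Python 3.11.15, numpy 2.4.6, pandas 2.3.3, scipy 1.17.1, statsmodels 0.14.6 and matplotlib 3.10.9 were used. The calling step was run on simulated fold changes with normal noise of the size of the deposited SE. Such a simulation cannot test the counts or the fit of the authors. The members and gene lists were chosen with earlier results of these data known. The genes named are all members and, in each other list, each called gene, the uncalled gene with the smallest p-value and each gene not tested. Values of some pathway genes are not reported here, though the counts include them. Alternatives changed the count minimum, the threshold, the scaling, the adjustment and the length and GC trend. Older symbols in the table were matched for Ciart, Cipc, Noct and Adgre1.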

Additional observations from a re-analysis of the deposited data

How the results depend on the processing

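No paired analysis was possible because single libraries have no values in the table, and leaving out each replicate, TMM scaling and fits with edgeR or DESeq2 were likewise not run. Per3 and Nr1d1 kept their direction and an adjusted p under 0.05 in each of the 9 alternatives, with adjusted p-values up to 8.69e-08 and 0.00878, and Npas2 in the 8 that could test it, up to 0.00231. Nr1d1 did not reach an absolute log2 fold change of 1. That threshold left 1287 of 4235 called genes overall and 1 of 9 called pathway genes, and an adjusted p under 0.01 left 5 of 9, as fewer genes can pass a stricter threshold. The shift to equal library totals lowers each log2 fold change by 0.13, moves the median of tested genes to -0.15 and makes 33.1% of calls higher in place of 55.5%, by its construction. It called Per2, with a log2 fold change of -0.49. Dbp turned to 0.0031 when values were centred on the median, with adjusted p = 0.991. Arntl, Per1, Cry1 and Cry2 were uncalled in each alternative run, with adjusted p-values from 0.182 to 0.925.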

Other observations

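Per1 is also induced by acute stimuli and by glucocorticoids, and genes with such responses were examined beside it. Of the 12 immediate early genes 10 were tested, with a median log2 fold change of 0.41. Of these, 4 were called higher with age and 0 lower, beside 12.9% higher and 10.4% lower over all tested genes. Atf3, a stress-induced transcription factor gene, was 6.96 times as high in aged as in young RPE/choroid (adjusted p = 1.79e-42, DESeq2 Wald test), with a 95% confidence interval of 5.31 to 9.12. Egr2 followed with 2.78 (adjusted p = 4.81e-05), then Junb with 1.69 (adjusted p = 0.00115) and Jun with 1.54 (adjusted p = 0.0253, and 0.0805 after the shift to equal library totals). The uncalled gene with the smallest p-value was Btg2, with a ratio of 0.850 (adjusted p = 0.412). Ier2 had no deposited p-value and Egr3 had a mean normalized count of 1.33, so neither was tested.

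Of the 11 glucocorticoid-induced genes 5 were called higher and 1 lower, with a median log2 fold change of 0.11. The genes called higher were Fkbp5, a glucocorticoid receptor co-chaperone gene, with a ratio of 2.02 (95% confidence interval from 1.67 to 2.44, adjusted p = 2.53e-11), Pdk4, Cdkn1a (1.56), Mt2 (1.49) and Mt1 (1.30, with its call lost after the shift, adjusted p = 0.149). Tsc22d3 was called lower, and the uncalled gene with the smallest p-value was Klf9, with a ratio of 0.887 (adjusted p = 0.541). Tsc22d3, Klf9 and Pdk4 are also among the clock output genes. Over all tested genes 23.3% were called, and the part of acute responses in the clock gene values was not tested.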
